A study of Mus musculus with 6 samples.

Results

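The 8 genes described here, Laptm5, Sla, Dgka, Tbc1d10c, Lax1, Traf3ip3, AB124611 and Inpp5d, were grouped as intracellular brakes on B cell activation, a name that rests on known roles for the others but not for AB124611. They were found by gene symbol in the deposited tables, and all 8 were present among 23420 symbols. They belong to a set of negative regulators that the study picked out because their transcripts were more abundant in CL097-treated B cells carrying a chimeric receptor than in the CL097 libraries used here. Low values in those CL097 libraries were part of the selection, and the 8 were grouped here with their lower level after CL097 known. The levels of the 8 genes and the differences between conditions are therefore a description, without a test.

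RNA was sequenced from bead-purified splenic B cells of TLR9-/- MRL/lpr mice with wild-type TLR7. There were 3 libraries of cells cultured with CL097, an imidazoquinoline agonist of TLR7, at 5 µg/ml for 4 h, and 3 libraries of cells left unstimulated over the same time. The cells came from 3 mice aged 5 to 7 weeks, male per the study's methods. Libraries of both conditions carry the numbers 1 to 3. All libraries share the germline TLR9 deficiency and the Fas lpr mutation of the strain, so neither genotype is compared. The comparison asks how transcripts of these intracellular brakes differ when TLR7 is engaged in B cells that lack TLR9.

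TLR7 and TLR9 signal by activating MyD88, per the study. An antigen receptor starts a cascade of tyrosine kinases, lipid messengers, calcium and adaptor proteins. Each step of that cascade has an enzyme or a scaffold that limits it. SHIP-1, the product of Inpp5d, removes a phosphate from the lipid that PI3 kinase makes, diacylglycerol kinase alpha (Dgka) consumes the lipid that activates Ras exchange factors and protein kinase C, and carabin (Tbc1d10c) inhibits calcineurin and Ras. Adaptors without enzymatic activity act on the receptors and on the first kinases, and LAPTM5 directs antigen receptors to the lysosome. Mice that lack SHIP-1 or LAX have hyperresponsive B cells. Not every product is a soluble protein: LAPTM5 is a protein of the lysosomal membrane and LAX a transmembrane adaptor. AB124611 was placed by the study among negative regulators of differentiation, and no role is given to it here.

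The genes lie on 6 chromosomes of the mouse build GRCm38 (mm10), with coordinates from GENCODE M21 counted from 1. Inpp5d (87620312 to 87720507, plus strand), Lax1 (133679091 to 133690108, minus strand) and Traf3ip3 (193175453 to 193201703, minus strand) are all on chromosome 1, far apart from each other. Laptm5 is on chromosome 4 (130913125 to 130936141, plus strand), AB124611 on chromosome 9 (21526176 to 21545333, plus strand), Dgka on chromosome 10 (128720134 to 128744855, minus strand), Sla on chromosome 15 (66780819 to 66831829, minus strand) and Tbc1d10c on chromosome 19 (4183411 to 4191284, minus strand). The annotated spans run from 7.9 kb for Tbc1d10c to 100.2 kb for Inpp5d.

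Promoter sequence from RefSeq (GRCm38.p6) was at hand for 6 of the 8 genes, in 10 windows, and only the 250 bases before each annotated start were searched. The search used GGAAGT, a core recognised by ETS family factors, the E-box CACGTG and the NF-kB motif, each on both strands, and the motifs were chosen with the values known. Windows with GGAAGT are shown because Ets1, itself one of the regulators named by the study, was lower in the same CL097 libraries. The motif was found before a RefSeq start of Laptm5, Traf3ip3, AB124611 and Inpp5d. These are 4 of 6 genes, against 27.9% of the 8861 tested genes with a window. A gene with more windows has more chances of a match. Counted by window, the motif was in 4 of 10, against 23.98% of all 11286 windows. Whether Ets1 has a part in the lower levels was not tested. Each line below gives 30 bases read in the direction of the gene, with the match in capitals (GGAAGT, or ACTTCC where it lies on the opposite strand).
Inpp5d, chr1:87620282-87620311, plus strand: tttctataatgaGGAAGTtctgtgcagctc
Laptm5, chr4:130913241-130913270, plus strand: tgagggcaaggcGGAAGTgaggcaggcagc
AB124611, chr9:21526134-21526163, plus strand: agcttgtgtgcaACTTCCtgccacccagga
Traf3ip3, chr1:193201561-193201590, minus strand: gtgcctgggtggACTTCCtcaccagccctg
Traf3ip3, chr1:193201633-193201662, minus strand: gcaccaaccagaGGAAGTgaatactgggct
Traf3ip3, chr1:193201748-193201777, minus strand: cctcctgcctctACTTCCtgaatgccgggg

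Distances are from the RefSeq start of each window, which for Laptm5 (130913316) and Traf3ip3 (193201546) lies inside the GENCODE span given above. The matches begin 18 bases before the RefSeq start of Inpp5d (87620312), 63 before that of Laptm5, 31 before that of AB124611 (21526177), and 32, 104 and 219 before that of Traf3ip3. The Laptm5 match and the nearer 2 of the 3 Traf3ip3 matches therefore lie within the GENCODE gene rather than before it. A window of Dgka held the E-box, which 10.2% of the tested genes with a window have, and none of the 10 windows held the NF-kB motif, which 10.7% of those genes have. A match is a run of letters in this window, and binding was not measured.

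Values are log2 CPM, read counts scaled to library size, which the authors had quantile-normalized, and levels are given as CPM. The summed CPM of a library was between 991008.5 and 999203.6, and 10906 to 10997 genes reached 1 CPM in a library. How deeply each library was sequenced is unknown. Of 11844 tested genes, 23.6% were called lower and 24% higher after CL097, where a call needed an adjusted p under 0.05 and a log2 fold change beyond 0.5 in either direction. The 7 B cell markers summed to 2676 to 3211 CPM in CL097 and 5956 to 6666 CPM in unstimulated libraries, and 4 of them (Cd79a, Cd79b, Cr2 and Ms4a1) were called lower, whereas Pax5 was not called (167 to 186 CPM in CL097 and 144 to 174 CPM in unstimulated libraries). Tlr9 was detected in every library (112 to 145 CPM in CL097, 132 to 155 CPM in unstimulated cells), which checks neither genotype nor label, since reads over the deleted bases cannot be separated in a single value for the gene. Tlr7 was called lower (log2 -0.61, SE 0.18, limma adjusted p = 0.0180), but this call was lost without CL097 replicate 1 (log2 -0.43), without unstimulated replicate 3 (-0.47) and without replicate 3 in both conditions (-0.54).

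All 8 brake transcripts were lower after CL097, in 24 of 24 comparisons between libraries of equal number. The mean fold ran from 3.64-fold lower for Laptm5 to 11.3-fold lower for Tbc1d10c, with a median log2 difference of -2.85, against 0.002 for all tested genes. All 8 met the call criterion for lower genes, which 23.6% of tested genes met (25.8% with the replicate number as a block, and 47.6% were called in either direction), and none of the 8 overlapped between the conditions, as was so, in the lower direction, for 32.4% of tested genes. These counts were fixed in part by how the genes were chosen. Since the cells were measured in bulk, fewer cells of a type and less RNA per cell cannot be told apart.

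**Figure D1:**
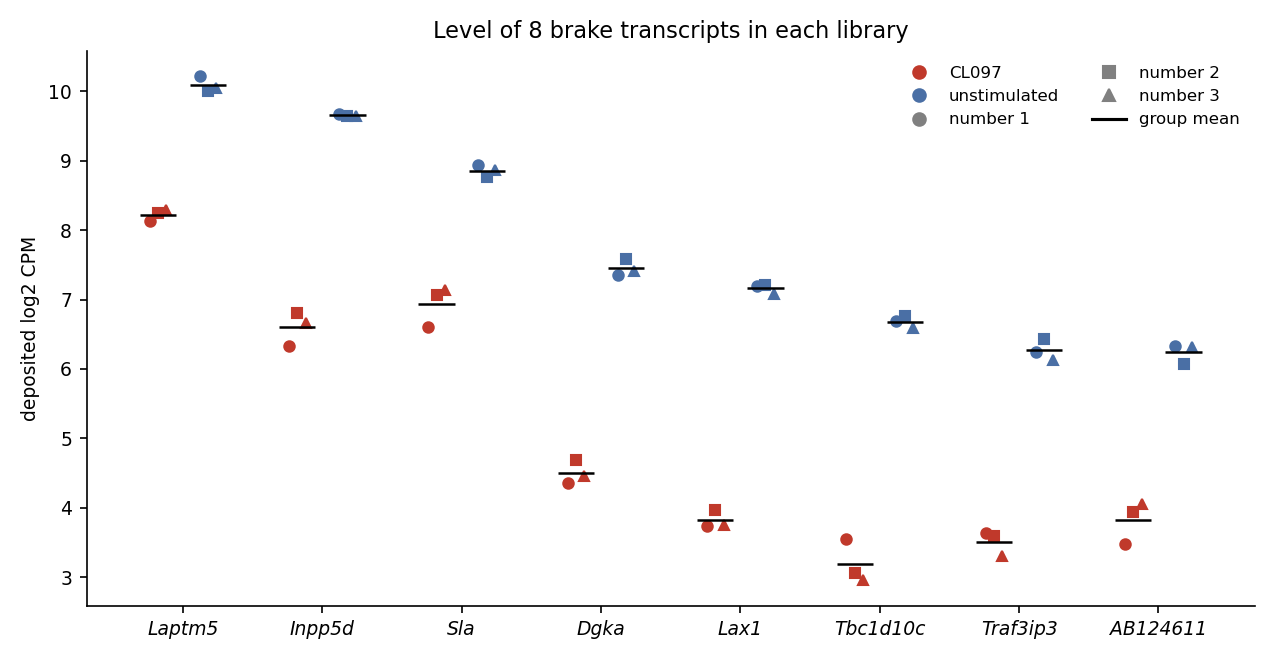
Deposited log2 CPM (vertical axis) of the 8 transcripts in each library, with CL097 libraries in red left of unstimulated libraries in blue, 1 marker shape per replicate number and a bar at each group mean. Every CL097 value lies below every unstimulated value of its gene, with a gap of 1.63 (Sla) to 3.11 (Lax1) on the log2 scale.

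Among the lipid enzymes, Inpp5d had 80.7, 112 and 101 CPM in CL097 libraries 1, 2 and 3, against 820, 803 and 797 CPM in unstimulated libraries. Its unstimulated values lay within 0.04 of each other on the log2 scale, the tightest of the 8, whereas its CL097 values spread over 0.47. The level averaged 97.9 ± 15.7 CPM after CL097 and 807 ± 11.8 CPM without (SD, n = 3 each), which is 8.32-fold lower. Within numbers the log2 difference was -3.34, -2.85 and -2.98 for numbers 1, 2 and 3.

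Dgka had 20.6, 25.8 and 22.0 CPM in CL097 libraries, against 163, 192 and 171 CPM in unstimulated libraries. Library 2 was the highest of both conditions, so the differences between numbers largely cancelled: they were -2.99, -2.89 and -2.96, with an SD of 0.05, the smallest of the 8 genes. The mean was 22.8 ± 2.73 CPM after CL097 and 175 ± 14.8 CPM without, 7.71-fold lower. Exons of Dgka overlap those of Pmel, a pigment cell gene on the opposite strand, and the strand setting of the counting is not given in the sources used here. Pmel had 0.207 to 0.464 CPM in CL097 and 1.35 to 1.82 CPM in unstimulated libraries, a small amount beside Dgka.

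Tbc1d10c, which encodes carabin, had the largest difference. It had 11.7, 8.33 and 7.75 CPM in CL097 libraries, against 104, 108 and 96.5 CPM in unstimulated libraries. CL097 library 1 stood above the other CL097 libraries, and the fold was 8.88 lower in number 1, 13.01 in number 2 and 12.45 in number 3. On average 8.86% of the unstimulated level was left (9.25 ± 2.12 CPM against 103 ± 5.97 CPM). Ranked by log2 fold change, 44 of the 11844 tested genes were further down than Tbc1d10c. A processed transcript annotated on the same strand shares exonic bases with it and has no value in these tables.

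Of the adaptors that act near the receptors, Lax1 had 13.3, 15.7 and 13.4 CPM in CL097 libraries, against 147, 148 and 135 CPM in unstimulated libraries. The 3 differences, -3.46, -3.24 and -3.33, lay close together, and the mean of 10.2-fold lower placed it next to Tbc1d10c. Sla, the SRC-like adaptor that links antigen receptors to the ubiquitin ligase CBL, kept a larger share of its transcript. It had 97.6, 134 and 140 CPM in CL097 libraries, against 492, 434 and 467 CPM in unstimulated libraries. Number 1 had both the highest unstimulated and the lowest CL097 value, so Sla was 5.04-fold lower there and 3.24-fold and 3.33-fold lower in numbers 2 and 3. Sla lies within the thyroglobulin gene Tg on the opposite strand without shared exonic bases, and Tg was between 2.00 and 3.60 CPM in CL097 and between 2.84 and 3.86 CPM in unstimulated libraries.

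Laptm5, the lysosomal protein that recruits NEDD4 family ubiquitin ligases, was the most abundant of the 8. It had 282, 303 and 313 CPM in CL097 libraries, against 1193, 1022 and 1057 CPM in unstimulated libraries. The log2 difference was -2.08 in number 1 and -1.76 in both other numbers, and 27.5% of the unstimulated level was left on average. Laptm5 made up 48.4% to 53.2% of the summed CPM of the 8 transcripts after CL097 and 35.7% to 38.8% without. That sum was 529 to 625 CPM in CL097 libraries and 2860 to 3075 CPM in unstimulated libraries.

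Traf3ip3 encodes a coiled-coil protein that binds TRAF3, an adaptor and ubiquitin ligase of TNF receptor and Toll-like receptor pathways. It had 12.5, 12.02 and 9.94 CPM in CL097 libraries, against 76.1, 86.5 and 70.0 CPM in unstimulated libraries, 6.76-fold lower on average. The opposite strand carries A130010J15Rik, which shares exonic bases with Traf3ip3 and lay between 8.61 and 10.9 CPM in CL097 and between 9.45 and 10.96 CPM in unstimulated libraries. Without the strand setting, reads of this neighbour cannot be separated from those of Traf3ip3, and its values are of the size of the Traf3ip3 values after CL097. AB124611 had 11.2, 15.4 and 16.5 CPM in CL097 libraries, against 80.6, 67.1 and 79.7 CPM in unstimulated libraries. It varied most between numbers, from 7.22-fold lower in number 1 to 4.36-fold lower in number 2.

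**Figure D2:**
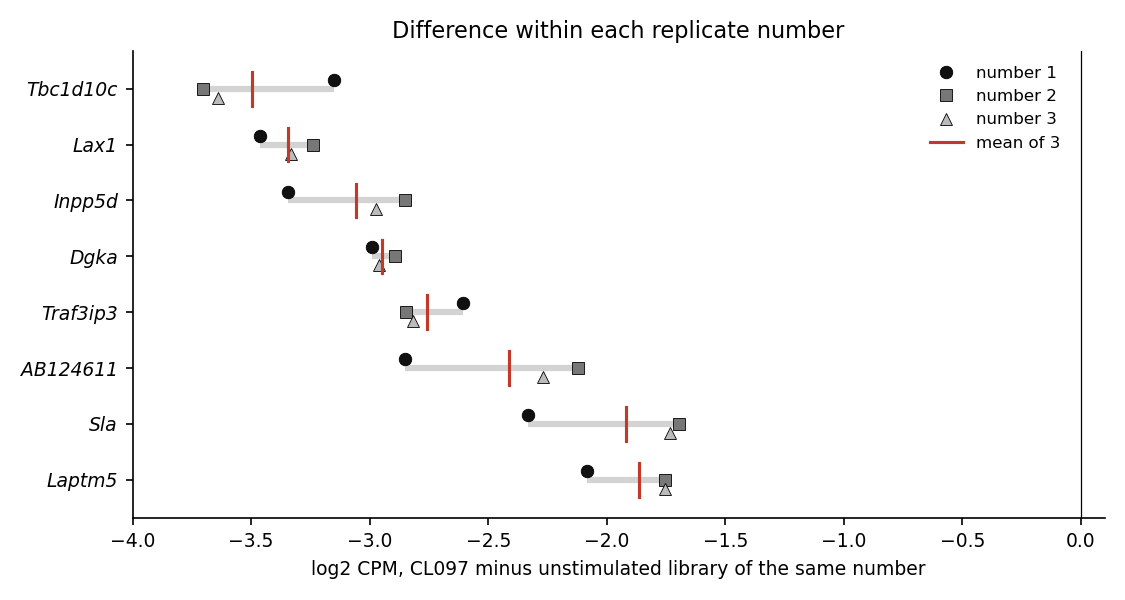
Log2 CPM of the CL097 library minus that of the unstimulated library of the same number (horizontal axis), with 1 marker per number, a grey bar over their range and a red line at their mean. The genes run from Tbc1d10c (mean -3.50) at the top to Laptm5 (-1.86) at the bottom, and the spread is smallest for Dgka and largest for AB124611.

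Number 1 had the largest difference for 6 of the 8 genes, and the smallest for Tbc1d10c and Traf3ip3. In CL097 libraries number 1 lay 0.49 below the mean of numbers 2 and 3 for Sla, 0.52 below for AB124611 and 0.40 below for Inpp5d on the log2 scale, but 0.54 above it for Tbc1d10c. Number 1 also differed in markers of other cells, with 78.9 CPM for the summed monocyte and macrophage markers against 159 and 251 CPM in CL097 libraries 2 and 3, and 110 CPM against 307 and 450 CPM in unstimulated libraries. Summed erythroid markers were 46.6 CPM against 1144 and 2005 CPM in CL097 libraries, and 26.8 CPM against 796 and 929 CPM in unstimulated libraries. Their part in the differences was not tested. With number 1 left out of both conditions the log2 differences of the 8 genes lay between -3.67 for Tbc1d10c and -1.72 for Sla.

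These transcripts are made by other leukocytes too, so markers of those cells were read beside them. Of 10 T cell markers in the tables, Cd3e, Cd3d, Cd3g, Zap70, Thy1, Lat and Bcl11b were all below 1 CPM in every library. The summed T cell list was 80.7 to 117 CPM in CL097 and 228 to 270 CPM in unstimulated libraries, nearly all of it from Cd2 (24.5 to 33.6 CPM against 179 to 198 CPM) and Lck (45.1 to 88.3 CPM against 43.4 to 67.2 CPM). Of 9 monocyte and macrophage markers limma called 0 higher and 0 lower, their median log2 fold change was -0.09, and they summed to 78.9 to 251 CPM in CL097 and 110 to 450 CPM in unstimulated libraries. Of 4 plasma cell markers, 3 were called lower, Sdc1 (log2 -2.73), Mzb1 (-1.91) and Xbp1 (-0.76). The remaining marker, Prdm1, was not called (log2 0.10, 13.5 to 22.1 CPM in CL097 and 13.2 to 22.2 CPM in unstimulated libraries). The plasma cell list summed to 147 to 163 CPM in CL097 and 362 to 390 CPM in unstimulated libraries. Of 5 tested dendritic cell markers, Zbtb46 was called higher (log2 2.54). Flt3 (log2 0.44), Siglech (-0.003), Ccr9 (-0.22) and Itgax (-0.88) were not called, and the median of the list was -0.003. Cd79a and Cd79b among the lower B cell markers had log2 fold changes of -2.06 and -2.09. The part of these markers in the differences of the 8 genes was not tested.

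Levels of different genes were compared per kilobase of annotated exon. In unstimulated cells the order was Laptm5 (288 ± 23.8 CPM per kb), Inpp5d (106 ± 1.56), Lax1 (62.1 ± 3.03), AB124611 (52.4 ± 5.22), Sla (50.5 ± 3.20), Dgka (36.8 ± 3.11), Tbc1d10c (28.4 ± 1.65) and Traf3ip3 (13.5 ± 1.45). Libraries of AB124611 and Sla overlapped, and every other pair of neighbours was separated in all libraries. After CL097 the order was Laptm5 (79.0 ± 4.27), Sla (13.5 ± 2.51), Inpp5d (12.9 ± 2.06), AB124611 (9.93 ± 1.96), Lax1 (6.13 ± 0.58), Dgka (4.78 ± 0.57), Tbc1d10c (2.55 ± 0.58) and Traf3ip3 (2.00 ± 0.24). There Sla, Inpp5d and AB124611 overlapped with each other, as did Tbc1d10c and Traf3ip3. In CPM, Inpp5d stood at 0.827, 0.833 and 0.723 times Sla in CL097 libraries, against 1.67, 1.85 and 1.71 times Sla in unstimulated libraries.

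Close relatives of the brakes did not all share their differences. Tbc1d10a, a paralog of carabin, rose 2.04-fold (46.1 ± 5.78 CPM after CL097 and 22.6 ± 1.93 CPM without, log2 1.03, SE 0.12, limma adjusted p = 0.000191), and Tbc1d10b was not called (log2 0.16, SE 0.08, adjusted p = 0.113). Per kilobase, Tbc1d10c stood at 0.150 times Tbc1d10a and 0.142 times Tbc1d10b after CL097, against 3.46 and 1.75 times in unstimulated cells, so that it was the lowest of the 3 in every CL097 library and the highest in every unstimulated library. Laptm4a, a lysosomal relative of Laptm5, was not called, with 171 ± 9.29 CPM after CL097 and 171 ± 7.58 CPM without (log2 -0.002, SE 0.07, adjusted p = 0.986). Laptm5 stood at 0.818 times Laptm4a per kilobase after CL097, against 2.99 times in unstimulated cells. This change of order rests on the annotated exon lengths (3788 bases for Laptm5 and 1773 for Laptm4a). In CPM Laptm5 stayed above Laptm4a in every library, with 282, 303 and 313 CPM against 163, 170 and 181 CPM in CL097 libraries. Laptm4b was at 3.44 CPM after CL097 and 2.55 CPM without and was not called.

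Of the other diacylglycerol kinases, Dgkd and Dgkz were called lower, Dgkh was called higher, and Dgke, Dgkq, Dgkg and Dgki were not called. Dgkh, named with Dgkq, Dgkg and Dgki after the values were seen, had 10.8 CPM after CL097 and 5.68 CPM without (log2 0.96, SE 0.21, adjusted p = 0.00515). Dgkd, the most abundant of them, fell to 300 ± 47.1 CPM after CL097, against 848 ± 96.6 CPM without (log2 -1.51, SE 0.13, adjusted p = 3.34e-05). Dgkz fell by 0.79 on the log2 scale (SE 0.09, adjusted p = 0.000140). Dgke was not called at log2 -0.49 (SE 0.12, adjusted p = 0.00850), just short of the fold threshold of 0.5. Per kilobase Dgka stood at 0.265 times Dgkz after CL097, against 1.17 times in unstimulated cells, whereas in CPM Dgka lay below Dgkz in every library. Inppl1, which encodes SHIP-2, was not called (57.8 ± 3.09 CPM after CL097 and 73.3 ± 11.1 CPM without, log2 -0.33, SE 0.12, adjusted p = 0.0455), and Inpp5d remained above it in every library, at 1.42 times its level per kilobase after CL097 and 9.43 times without. Sla2, the paralog of Sla, did not exceed 0.535 CPM in any library and was not tested. The size of these contrasts between a brake and its relative was not tested, because the brakes were chosen on their values.

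**Figure D3:**
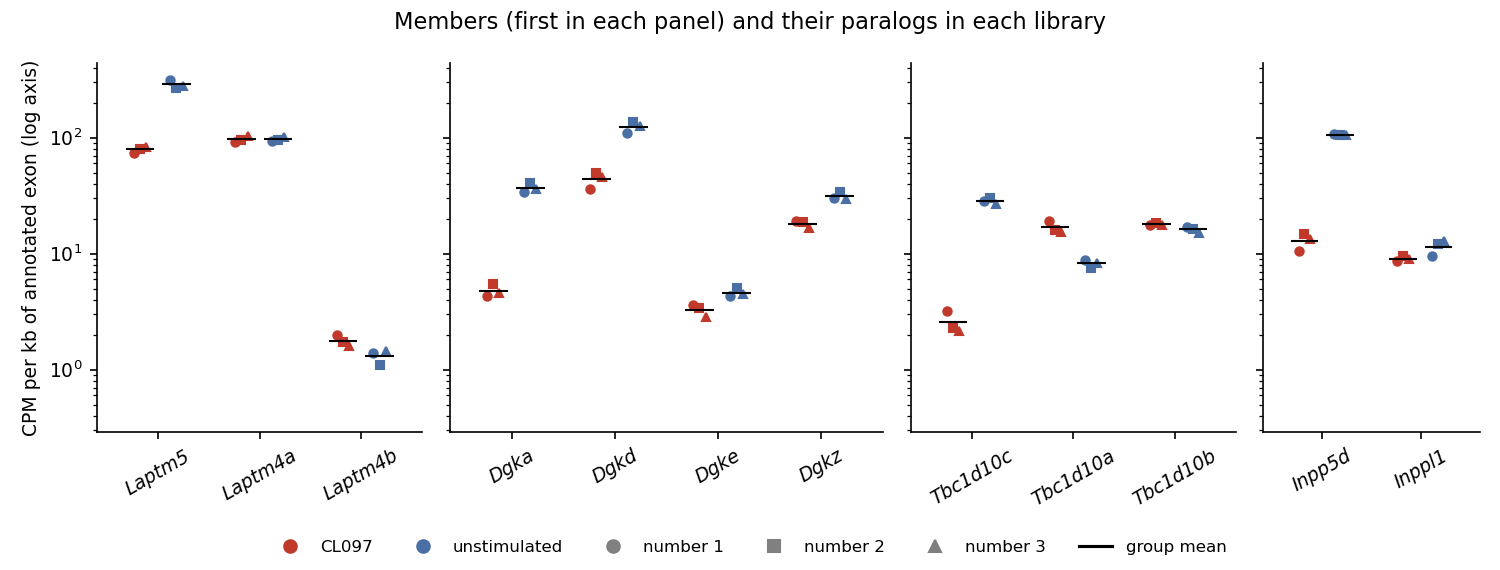
CPM per kilobase of annotated exon (log axis) of Laptm5, Dgka, Tbc1d10c and Inpp5d, each first in its panel, and of their paralogs, with CL097 libraries in red left of unstimulated libraries in blue and bars at group means. Tbc1d10c lies above Tbc1d10a and Tbc1d10b in unstimulated libraries and below both in CL097 libraries. Laptm5 changes place with Laptm4a per kilobase, but in CPM, which is not plotted, Laptm5 is the higher in every library.

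The genes that work beside the brakes were read as 6 lists of known partners, listed by function. In the diacylglycerol arm, which holds other diacylglycerol kinases, phospholipase C gamma and the proteins that diacylglycerol activates, 8 of 20 tested genes were lower (40%, against 23.6% of all tested genes) and 1 was higher (5%, against 24%), and the other 11 missed the call. The median log2 fold change was -0.61, against 0.002 over all tested genes. Rasgrp2, an exchange factor for Rap1, fell to 12.5 ± 4.15 CPM after CL097, against 113 ± 14.6 CPM without (log2 -3.22, SE 0.23, adjusted p = 1.14e-05). Rasgrp1, the exchange factor for Ras that diacylglycerol recruits, was 6.52-fold lower (log2 -2.71, SE 0.09, adjusted p = 8.66e-07). Rasgrp3 and the protein kinase C genes Prkca, Prkcb and Prkce, which diacylglycerol also activates, were not called. Their log2 fold changes were -0.39, -0.17, -0.23 and -0.48. Of the other kinases in this list, Prkcd (log2 -0.77, SE 0.12, adjusted p = 0.000764) and Prkd2 (log2 -1.82, SE 0.09, adjusted p = 2.31e-06) were called lower. All of these were named after their values were seen.

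In the phosphoinositide arm, made of other lipid phosphatases, subunits of PI3 kinase and partners of SHIP-1, 9 of 26 tested genes were lower (34.6%, against 23.6% of all tested genes) and 1 was higher (3.85%, against 24%), with a median log2 fold change of -0.37. At an unadjusted p under 0.05, 13 were lower and 5 higher. Inpp5k, another inositol 5-phosphatase, fell to 28.4 ± 2.23 CPM after CL097, against 228 ± 27.7 CPM without (8.004-fold lower, SE of the log2 fold change 0.11, adjusted p = 8.99e-07). Dok3, an adaptor that works with SHIP-1 in B cells, was 4.81-fold lower. Inpp4b, a 4-phosphatase, rose by log2 0.64 (SE 0.13, adjusted p = 0.00390) from a low level, a call that was lost without replicate 2 in both conditions (log2 0.60). PI3 kinase subunit genes were among the lower ones as well: Pik3cg and Pik3r1 had log2 fold changes of -1.67 and -1.62, genes named after their values were seen.

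Of the membrane adaptors and the SLAP and CBL partners, 10 of 14 tested genes were lower and 0 were higher in limma (median -0.90). At an unadjusted p under 0.05, 2 were higher. One of these, Ubash3a, a phosphatase-like regulator of antigen receptor signals named after its values were seen, was called higher with the replicate number as a block (log2 1.82, 2.46 ± 1.93 CPM after CL097 and 0.567 ± 0.271 CPM without). Lat2, an adaptor with a place in the cascade like that of LAX, fell to 12.1 ± 1.497 CPM after CL097, against 63.1 ± 1.69 CPM without (log2 -2.39, SE 0.12, adjusted p = 2.16e-06). Pag1, which anchors the inhibitory kinase CSK at the membrane, was 3.33-fold lower. The list had 71.4% of its tested genes lower, against 23.6% of all tested genes, and 0% higher, against 24%.

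Counts of lower genes in the other 3 lists were nearer to that background. Of the LAPTM genes and NEDD4 ligases, 3 of 12 were lower (25%) and 0 were higher in limma, against 24% higher of all tested genes. At an unadjusted p under 0.05, 6 were lower and 0 higher, against 3680 and 3831 of the 11844 tested genes. The median log2 fold change of the list was -0.26. Its called genes included Itch and Nedd4l, ubiquitin ligases that were 1.96-fold and 1.87-fold lower. Of the calcineurin, TBC1D10 and Ras GAP genes, 6 of 21 were lower (28.6%) and 4 higher (19%). Rasa3, a GTPase-activating protein for Ras and Rap1, fell to 167 ± 24.1 CPM after CL097, against 699 ± 40.8 CPM without (log2 -2.07, SE 0.11, adjusted p = 2.83e-06), and Rasal3 was 3.82-fold lower, whereas Rasal1 rose 1.90-fold beside Tbc1d10a. Of the TRAF3 and STRIPAK partners, 6 of 21 were lower (28.6%) and 2 higher (9.52%). Sike1 and Stk24 were 2.63-fold and 2.21-fold lower, and Birc3, a ubiquitin ligase of the TRAF complex, rose to 745 ± 38.7 CPM after CL097, against 411 ± 19.1 CPM without (log2 0.86, SE 0.07, adjusted p = 2.59e-05). Traf3 itself was not called (log2 -0.11, SE 0.09, adjusted p = 0.349).

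**Figure D4:**
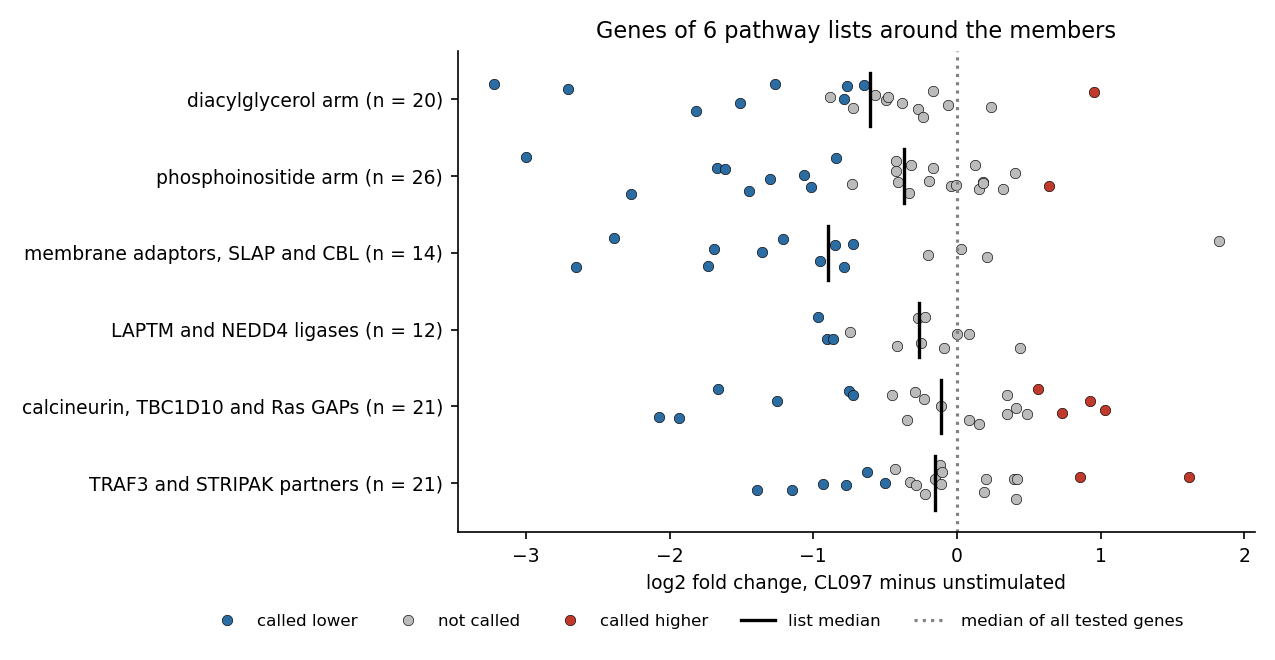
Log2 fold change (CL097 minus unstimulated, horizontal axis) of each tested gene in 6 lists of partners, with called genes in blue (lower) or red (higher), genes not called in grey, a black bar at the list median and a dotted line at the median of all tested genes. Medians run from -0.90 for the membrane adaptors to -0.11 for the calcineurin and Ras list, and the brakes themselves are not plotted.

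The study's other negative regulators were chosen in the same way and are also a description. Cd22 (80.1 ± 6.22 CPM after CL097 and 411 ± 46.5 CPM without), Faim3 (236 ± 39.9 and 1006 ± 138 CPM), Btg2 (102 ± 19.7 and 483 ± 6.30 CPM) and Ets1 (287 ± 35.7 and 1873 ± 122.5 CPM) had log2 differences of -2.36, -2.10, -2.27 and -2.71. Their median of -2.31 lay within the range of the intracellular brakes.

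The genes whose profile over the 6 libraries was nearest to that of each brake were searched among 8165 other genes that averaged 10 CPM or more, by the Euclidean distance of log2 CPM after each gene's mean had been subtracted. The nearest to Lax1 was Sbk1, a kinase gene, at a distance of 0.095, followed by Trpv2, a cation channel gene, for Laptm5 (0.113) and Crebrf for Sla (0.166). Gga2, which encodes a clathrin adaptor of the Golgi, was nearest to Traf3ip3 (0.2), 1600014C10Rik to AB124611 (0.207), Chst15, a sulphotransferase gene, to Inpp5d (0.221) and Mical1, which encodes an actin-oxidising enzyme, to Dgka (0.242). Tbc1d10c had the most distant neighbour, the adenylyl cyclase gene Adcy7 (0.386). Nearest to the mean profile of the 8 were Sipa1, which encodes a GTPase-activating protein for Rap1, at 0.155, and the cytokine gene Il16 (0.163), Smim14 (0.175), Hsd17b11 (0.197) and Gga2 (0.198). Sipa1 had 42.2 CPM on average after CL097, against 283 CPM without (log2 -2.74). With 2 conditions these distances mostly reflect the size of the difference between them.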

How the data were processed

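Per the labels and the study's methods, B cells from spleen were purified with beads by removing other cells, and stranded poly(A) libraries were sequenced. Tools listed in the submitters' processing notes are STAR 2.6.1a, featureCounts (Subread 2.0.1), Trim Galore 0.6.5, FastQC 0.11.7 and limma, with the build mm10. The authors quantile-normalized the reads per gene in voom, and the deposited values are log2 CPM with 1 file per library. Total RNA per cell was therefore not measured. Which annotation and strand option the counting used is not given in the sources used here.

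The files hold no read counts, so the edgeR test planned for counts did not apply. The test was limma 3.58.1 (R 4.3.3) on the deposited values, without a pseudocount. Genes with at least 0.5 CPM in at least 3 libraries were kept (11844), and the group was the only term, with a mean-variance trend. A call needed a Benjamini-Hochberg adjusted p under 0.05 over all tested genes and an absolute log2 fold change over 0.5, as in the study. The fit was tested on simulated data. The labels do not say that replicates are separate animals, so p-values measure the spread between these libraries.

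Equal values in both libraries of a number were held by 2655 to 3108 of 17935 genes with any variation, against 347 to 396 between numbers, so a shift shared within a number is present, and it alters spreads within a group. Deviations from group means correlated within numbers (0.568, 0.326 and 0.458), each over 0.1, so the paired fit, with the number as a block, was run as an alternative. The printed SE and adjusted p values come from the fit without the block.

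The members and lists were chosen with earlier results of these data known. Named were all members, relatives fixed by name, Tlr7 and Tlr9, the study's other 4 regulators, the nearest profiles and, in each list, up to 2 called genes per direction with the largest change, 10 CPM or more on average and separate groups. Alternatives were the replicate block, libraries left out, other filters, log2(CPM + 1), other scalings and no variance trend.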

Additional observations from a re-analysis of the deposited data

How the results depend on the processing

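The 8 brakes had a lower level after CL097 under all 16 refits, and 127 of 128 values stayed within 1 SD of the spread between libraries. The exception was Laptm5 without replicate 1 in both conditions, and its log2 difference ran from -1.92 to -1.76 over the fits that left out libraries. The replicate block, the other filters and the fit without a variance trend cannot alter a log2 difference in this balanced design. Leaving out a single library does alter it, but always by less than this SD, whatever the values. The values of these refits are part of the 128 and add nothing to that count. No fit with libraries left out could reverse a direction, since the conditions did not overlap for any of the 8. Single numbers differed more. In number 1 the log2 difference was -2.08 for Laptm5, -2.33 for Sla, -3.15 for Tbc1d10c, -3.46 for Lax1, -2.85 for AB124611 and -3.34 for Inpp5d. In number 2 it was -1.76 for Laptm5, -1.70 for Sla, -3.24 for Lax1, -2.12 for AB124611 and -2.85 for Inpp5d, and in number 3 -1.76 for Laptm5. With the replicate block the count of higher membrane adaptor genes was 1 in place of 0, as with cyclic loess, and no other count moved by over 1.5 times (all tested genes: 3065 higher and 3057 lower). The higher TRAF3 and STRIPAK partners numbered 1 with a filter at 5 CPM. With libraries left out, higher genes numbered 0 to 1 for the membrane adaptors, 1 to 2 for TRAF3 and STRIPAK partners, 0 to 1 in the diacylglycerol arm and 2 to 5 in the calcineurin list. Laptm4a changed sign, to 0.005 with median scaling, and ran from -0.043 to 0.034 with libraries left out, and Tlr9 ran from -0.251 to 0.011. Dgke was called lower with cyclic loess (-0.52) and in 5 of the fits with libraries left out. Count-based tests (edgeR and DESeq2) were not run, since log2 CPM is the deposited unit. Depth is unknown, so no counting limit was set for low genes.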
